A study of Mus musculus with 22 samples.

Results

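The 9 genes described here, Pdgfra, Cspg4, Gpr17, Olig1, Olig2, Sox10, Neu4, Vcan and C1ql1, are named for the oligodendrocyte precursor cell (OPC), and all 9 were listed among the 17440 genes of the expression table. They were chosen by gene symbol. The RNA came from mouse hypothalamus, a piece holding the arcuate nucleus and the median eminence, and was sequenced as phosphoTRAP libraries. In that assay ribosomes are pulled down with their mRNA through S6, a ribosomal protein, by an antibody to its form phosphorylated at residues 244 and 247. Each of 11 mice gave an immunoprecipitate (IP) and an input, a portion of the same lysate taken before the antibody, which makes 22 libraries. In the MCH-hM3Dq group (4 mice, numbered 1, 3, 4 and 5), the name places the activating designer receptor hM3Dq in neurons that make melanin-concentrating hormone (MCH). The control group (7 mice, numbered 1 to 7) is labelled control, and its sample titles carry the tag wt beside the tag tg of the hM3Dq titles. Every mouse of both groups was on the C57BL/6N background, was 10 to 13 weeks old, had fasted for 12 h, and had received the hM3Dq ligand clozapine N-oxide (CNO) by intraperitoneal injection 1 h before collection. The submitters' design counts 5 hM3Dq animals, and the 4 above are those analysed here.

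OPCs are dividing glial cells spread through the adult brain that renew themselves and give rise to myelinating oligodendrocytes. PDGF-A, made by neurons and astrocytes, keeps them dividing through the receptor tyrosine kinase PDGFRA, while OLIG2, OLIG1 and SOX10 set and keep the lineage and stay on in oligodendrocytes. Vcan, Cspg4 and Neu4 act at the cell surface and in the matrix, and Gpr17 marks the step from precursor to newly formed oligodendrocyte. In the median eminence such cells have been described as renewing quickly. Pdgfra is also used by fibroblasts of the meninges, and Cspg4 by pericytes. In bulk tissue, fewer cells of a type and less RNA per cell cannot be told apart.

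The comparisons centred on Pdgfra, the only member that passed a test, and on Vcan, whose IP values lay below input in most control mice. The promoters of these genes, the 250 bases upstream of the RefSeq start on GRCm38.p6, are printed with capitals at the E-box CANNTG, the general form of the site that basic helix-loop-helix factors such as OLIG2 bind. Pdgfra is on the plus strand at chr5:75152001-75152250 and Vcan on the minus strand at chr13:89742513-89742762.
Pdgfra promoter: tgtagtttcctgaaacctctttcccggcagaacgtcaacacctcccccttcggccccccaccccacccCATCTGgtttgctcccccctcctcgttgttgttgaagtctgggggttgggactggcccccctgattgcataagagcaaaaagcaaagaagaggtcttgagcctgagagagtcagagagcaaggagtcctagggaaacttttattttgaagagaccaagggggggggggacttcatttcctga
Vcan promoter: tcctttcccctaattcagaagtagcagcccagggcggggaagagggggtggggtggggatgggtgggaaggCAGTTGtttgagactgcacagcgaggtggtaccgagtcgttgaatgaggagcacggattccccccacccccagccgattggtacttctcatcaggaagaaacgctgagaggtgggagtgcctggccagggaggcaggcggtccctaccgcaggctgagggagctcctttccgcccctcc
Each held 1 CANNTG, as did the Neu4 promoter, and the Cspg4 and Olig2 promoters held none. These 5 were the members matched in the RefSeq promoter table. Neither CAGCTG, one form of CANNTG, nor ACAAAG, a SOX core searched on both strands, occurred in any of the 5. Of 32851 promoters of that length, 66.2% held CANNTG, 13.0% CAGCTG and 16.5% ACAAAG. A match here is only a description of letters.

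Values are normalised FPKM, fragments scaled to transcript length and library size, as deposited. Because FPKM is per length, the members can be ranked within a library. The transcription factor genes were the most abundant and the surface proteoglycan gene Cspg4 the least. Over the 11 IP libraries the median FPKM was 24.6 for Olig1, 10.7 for Olig2, 10.2 for Sox10, 3.50 for Pdgfra, 2.77 for Neu4, 2.07 for Gpr17, 1.27 for C1ql1, 0.988 for Vcan and 0.436 for Cspg4. Olig1 exceeded Olig2, and Sox10 exceeded Pdgfra, in 11 of 11 IPs. The neighbours Olig2 and Sox10 changed places between mice, with Olig2 higher in 6 of 11, and Neu4 was above Gpr17 in 6 of 11. In input the order was Olig1 (27.4), Sox10 (8.23), Olig2 (7.11), Pdgfra (2.66), Neu4 (1.72), Vcan (1.50), Gpr17 (1.10), C1ql1 (1.07) and Cspg4 (0.190). Gpr17 and C1ql1 had the closest input medians, and Gpr17 was the higher of them in 5 of 11 inputs.

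Summed over the 9 genes, FPKM was 50.1 to 79.6 in hM3Dq IP, 32.4 to 85.6 in control IP, 48.3 to 59.2 in hM3Dq input and 34.8 to 63.2 in control input, so the groups overlapped. Olig1 alone made up 34.4% to 59.3% of the sum. The number of sequenced reads was not given in the sources used here. Steps in the low normalised values put the relative depth of the libraries between 0.730 and 1.21. That estimate is rough, and 201 of 231 pairs of libraries fitted it within 0.1 on the log2 scale. Between 280 and 1895 genes stood at 0 in a library, with most in control input 1 (1895), control input 6 (1579) and control IP 5 (1515). Control IP 5 gave the lowest IP value for 4 members, Cspg4, Olig1, Sox10 and Neu4, and control IP 4 the highest for 4, Pdgfra, Gpr17, Olig1 and C1ql1. No pair of libraries correlated above 0.974 over all genes.

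**Figure D1:**
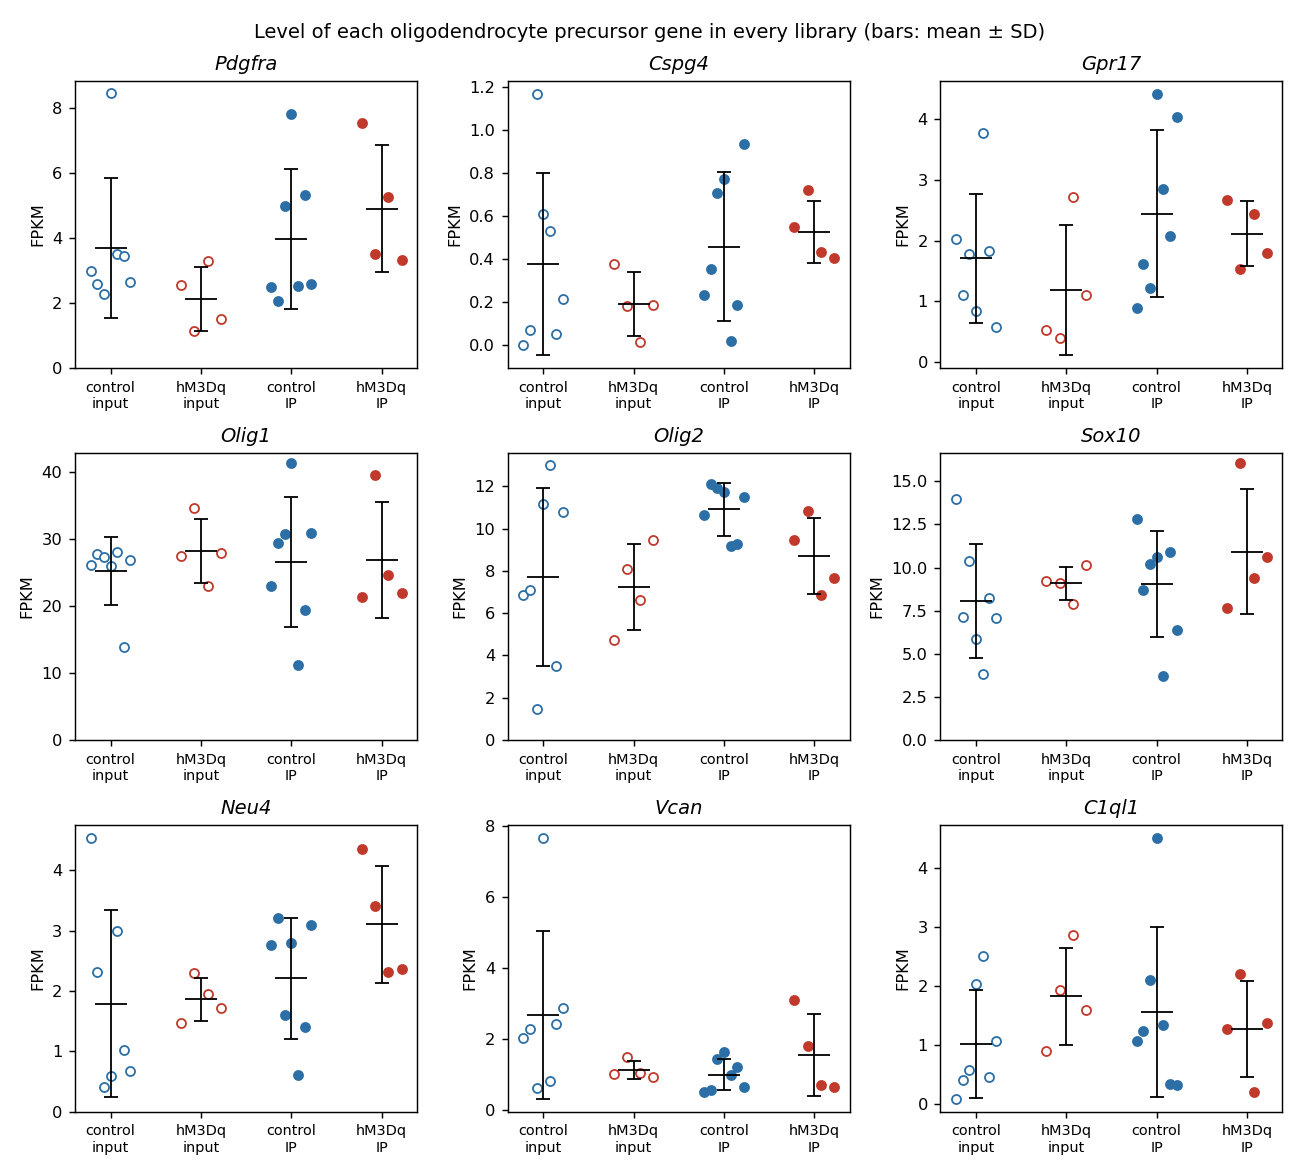
Normalised FPKM of each of the 9 genes in all 22 libraries, on a linear axis per gene. Open points are input, filled points IP, blue control (7 mice) and red hM3Dq (4 mice), with bars at the mean ± SD. The 4 hM3Dq IP values of Pdgfra, Cspg4 and Neu4 lie above the 4 hM3Dq input values, and the control IP and input values of every gene overlap.

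Pdgfra encodes the PDGF-A receptor that drives OPC division (ENSMUSG00000029231, GRCm38 chromosome 5, 75152292 to 75198215, plus strand). In hM3Dq mice 1, 3, 4 and 5 its FPKM was 7.52, 3.50, 5.26 and 3.34 in IP and 2.56, 1.13, 3.28 and 1.50 in input. Every IP value was above every input value, by a narrow margin between the lowest IP (3.34, mouse 5) and the highest input (3.28, mouse 4). Within a mouse, IP was 2.93, 3.10, 1.60 and 2.23 times input. In control mice the FPKM ran from 2.05 through a median of 2.58 to 7.82 in IP and from 2.27 through 2.98 to 8.46 in input. The control ranges overlapped almost fully, IP was above input in 2 of 7 mice, and mouse 4 was the highest in both fractions.

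IP against input asks which mRNAs were carried by ribosomes with phosphorylated S6 relative to the whole lysate. It was fitted within each genotype, pairing the libraries of each mouse, with limma on log2(FPKM + 1), and a gene is called here where the Benjamini-Hochberg adjusted p over all genes tested is under 0.05. In hM3Dq mice Pdgfra rose in IP by 0.92 on this log2 scale (SE 0.247, 95% interval 0.37 to 1.47, limma adjusted p = 0.0439). It was the only one of 8 tested members to be called, against a background of 5.41% of 12987 genes called higher and 4.9% called lower, 10.3% in either direction. The call did not hold with any one of the 4 hM3Dq mice left out, without the filter on low values or without pairing by mouse (adjusted p 0.0636 to 0.160 in limma). In control mice the same fit gave 0.07 for Pdgfra (SE 0.254, 95% interval -0.48 to 0.62, limma adjusted p = 0.913).

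Whether the IP over input change itself differed between genotypes was tested on the per-mouse differences. For Pdgfra it was 0.85 larger in hM3Dq mice (SE 0.362, 95% interval 0.08 to 1.62), with a limma p of 0.0325 before and 0.999 after adjustment over 14582 genes. No gene at all was called in that comparison (0%, with 448 at an unadjusted p under 0.05). The authors' deposited table marks Pdgfra as significant in its own test of the IP over input ratios between genotypes, with a log2 fold change of 1.11 and a p-value of 0.0204. That table marks 2.82% of its genes, and none of the other 8 members, whose deposited p-values run from 0.180 to 0.847. For all 9 members the deposited log2 fold change equalled log2 of the quotient of the groups' mean per-mouse ratios, hM3Dq over control, which for Pdgfra were 2.47 and 1.14.

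The 0.85 for Pdgfra is the sum of a higher IP and a lower input in hM3Dq mice. Among inputs its mean FPKM was 2.12 ± 0.987 (SD, n = 4) for hM3Dq mice against 3.70 ± 2.15 (SD, n = 7) for control mice. Among IPs it was 4.90 ± 1.95 (SD, n = 4) against 3.97 ± 2.14 (SD, n = 7). Neither difference passed: hM3Dq minus control was -0.55 in input (SE 0.340, limma adjusted p = 0.9997) and 0.30 in IP (SE 0.324, limma adjusted p = 0.949). Leptomeningeal fibroblast genes were high in several control libraries. Summed over the 10 listed of 12 such markers, FPKM was 4.78 to 11.6 in hM3Dq IP, 9.83 to 18.2 in hM3Dq input, 5.36 to 265 in control IP and 12.0 to 157 in control input. No marker of the list was at 0 in every library, and Igf2 alone reached 154 in control IP 5. Control mouse 4, the highest for Pdgfra, had sums of 54.9 in IP and 126 in input. In control mice 1 and 5 the IP sums were 118 and 265, and Pdgfra in IP was 2.50 and 2.54. The part of these cells in the Pdgfra values, or in their difference between genotypes, was not tested.

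**Figure D2:**
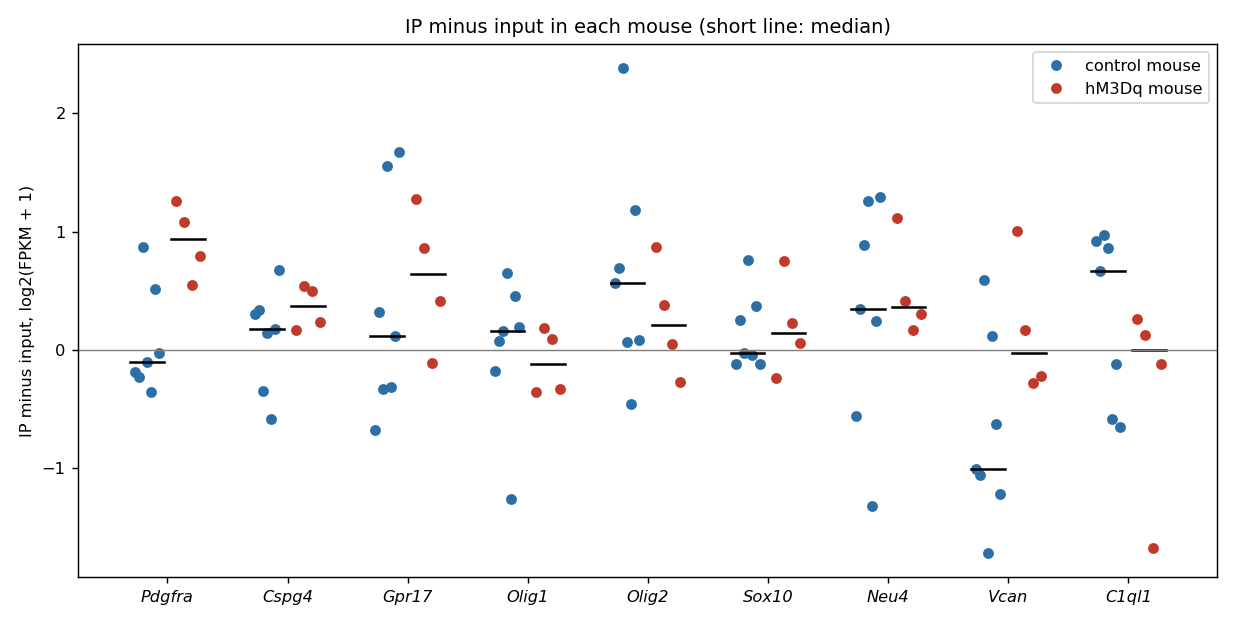
IP minus input in log2(FPKM + 1) for every mouse and gene, with blue points for the 7 control mice, red points for the 4 hM3Dq mice and short lines at the medians. Pdgfra, Cspg4 and Neu4 are above 0 in 4 of 4 hM3Dq mice, and no gene is above 0 in all 7 control mice.

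The cell-surface and matrix genes come next. Cspg4 encodes the proteoglycan NG2, the classical surface antigen of OPCs (ENSMUSG00000032911, chromosome 9, 56865033 to 56899870, plus strand). In hM3Dq mice 1, 3, 4 and 5 its FPKM was 0.551, 0.722, 0.436 and 0.405 in IP and 0.378, 0.183, 0.0143 and 0.190 in input. IP was above input without overlap there, but only 1 of 22 libraries reached an FPKM of 1 (control input 3, 1.17), so Cspg4 did not enter the fits. Control values ran from 0.0194 through a median of 0.354 to 0.936 in IP and from 0, in mouse 1, through 0.215 to 1.17 in input, and overlapped. With no filter on low values the hM3Dq change was 0.36 (SE 0.114), with a limma p of 0.0194 before and 0.154 after adjustment. The summed FPKM of the 9 listed of 12 pericyte and smooth muscle markers, cells that also use Cspg4, was 7.50 to 12.6 in hM3Dq IP and 8.52 to 22.3 in hM3Dq input; their part was not tested.

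Neu4 encodes a sialidase that trims sialic acids, polysialic acid among them (ENSMUSG00000034000, chromosome 1, 94020451 to 94028334, plus strand). Its FPKM in hM3Dq mice 1, 3, 4 and 5 was 4.35, 3.41, 2.31 and 2.36 in IP and 1.48, 2.30, 1.95 and 1.72 in input. The lowest IP and the highest input nearly touched. In control mice it ran from 0.601 through 2.77 to 3.21 in IP and from 0.413 through 1.03 to 4.54 in input, where the groups overlapped widely and 5 of 7 mice were higher in IP. The fitted changes, 0.50 in hM3Dq mice (SE 0.264, limma adjusted p = 0.267) and 0.31 in control mice (SE 0.341, limma adjusted p = 0.673), did not pass. The first was 0.30 without mouse 1, and the second ran from 0.14 without mouse 7 to 0.58 without mouse 5.

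Pdgfra, Cspg4 and Neu4 were thus the 3 members whose hM3Dq IP values all lay above the hM3Dq input values. Among all genes 6.62% did so, and 16.6% were higher in IP within each of the 4 mice. A count of 3 among 9 is small. The same 3 genes met both criteria, but a gene that meets the first always meets the second.

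Vcan encodes versican, a large secreted chondroitin sulfate proteoglycan (ENSMUSG00000021614, chromosome 13, 89655312 to 89742509, minus strand). In hM3Dq mice 1, 3, 4 and 5 its FPKM was 3.10, 1.81, 0.704 and 0.662 in IP and 1.04, 1.50, 1.06 and 0.939 in input. Mice 1 and 3 were higher in IP and mice 4 and 5 higher in input. Control values ran from 0.519 through 0.988 to 1.65 in IP and from 0.632 through 2.29 to 7.68 in input, so the upper input values lay beyond the IP range. In control mice Vcan was lower in IP in 5 of 7, at -0.70 (SE 0.310, 95% interval -1.37 to -0.03), with a limma p of 0.0417 before and 0.235 after adjustment. With a mouse left out, the control change ran from -0.92 without mouse 3 to -0.53 without mouse 4. The hM3Dq change was 0.17 (limma adjusted p = 0.764), 0.32 without mouse 4 and 0.30 without mouse 5. Without mouse 1 or mouse 3, Vcan did not pass the filter and was not tested. The log2 differences of hM3Dq mice 1, 3, 4 and 5 were 1.01, 0.17, -0.28 and -0.22. The difference between genotypes of 0.87 (95% interval -0.12 to 1.86) had a limma adjusted p of 0.999.

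C1ql1 encodes a secreted C1q-like protein made by OPCs and by some neurons (ENSMUSG00000045532, chromosome 11, 102939264 to 102946688, minus strand). The FPKM of hM3Dq mice 1, 3, 4 and 5 was 1.27, 2.20, 0.213 and 1.38 in IP and 0.899, 1.94, 2.87 and 1.59 in input. Mouse 4 had the lowest IP and the highest input of the group, and the fit of -0.35 (SE 0.348, limma adjusted p = 0.565) became 0.09 without it. In control mice the values ran from 0.317 through 1.24 to 4.51 in IP and from 0.0918 through 0.579 to 2.51 in input, and the change of 0.29 did not pass (limma adjusted p = 0.634) and ran from 0.18 without mouse 3 to 0.45 without mouse 7. A noncoding gene, Gm26668, overlaps C1ql1 on the other strand, as Gm42802, Gm4117 and Gm15966 overlap Pdgfra, Vcan and Olig1. Whether counting used strand is not given in the sources used here, so reads of such pairs may not be separable.

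Gpr17 encodes a G protein-coupled receptor of committed precursors (ENSMUSG00000052229, chromosome 18, 31942997 to 31949636, minus strand). For hM3Dq mice 1, 3, 4 and 5 its FPKM was 2.67, 1.53, 2.43 and 1.80 in IP and 0.522, 0.392, 2.71 and 1.10 in input. IP was higher in 3 of the 4, mouse 4 being the exception with the highest input. Control values ran from 0.896 through 2.07 to 4.41 in IP and from 0.580 through 1.79 to 3.77 in input, with IP higher in 4 of 7. The changes of 0.61 in hM3Dq mice (SE 0.294, 95% interval -0.05 to 1.27, limma adjusted p = 0.226) and 0.34 in control mice (SE 0.334, limma adjusted p = 0.634) did not pass. The first was 0.39 without mouse 1, and the second 0.11 without mouse 7 and 0.13 without mouse 4. Gpr17 lies within a locus shared with Lims2 on the other strand, whose FPKM ran from 0.203 to 32.4.

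Among the transcription factor genes, Olig1 and Olig2 encode basic helix-loop-helix factors and neighbour each other on chromosome 16, 41094 bases apart and both on the plus strand. Olig1 (ENSMUSG00000046160, 91269772 to 91271933), a single-exon gene, had FPKM of 21.3, 39.5, 24.6 and 21.9 in IP and 27.5, 34.6, 22.9 and 27.8 in input of hM3Dq mice 1, 3, 4 and 5. Control values ran from 11.1 through 29.4 to 41.3 in IP and from 13.8 through 26.9 to 28.0 in input. The fitted change was -0.10 in hM3Dq mice (95% interval -0.46 to 0.26) and 0.01 in control mice (95% interval -0.45 to 0.48), with limma adjusted p of 0.740 and 0.980. Single control mice differed, from -1.26 in mouse 5 to 0.65 in mouse 4, and 5 of 7 were higher in IP. Without mouse 5 the control change was 0.23. The input of control mouse 6 stood apart at 13.8, the other control inputs lying between 26.0 and 28.0.

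Olig2 (ENSMUSG00000039830, 91225457 to 91228677), which specifies the lineage, had FPKM of 9.45, 10.8, 6.87 and 7.66 in IP and 4.73, 8.09, 6.62 and 9.46 in input of hM3Dq mice 1, 3, 4 and 5. In control mice it ran from 9.19 through 11.5 to 12.1 in IP and from 1.48 through 7.11 to 13.0 in input. The control IP values had the smallest range of any member relative to their level, while the inputs spread over the whole IP range and below it. Of the 7 control mice 6 were higher in IP, and the change of 0.65 (SE 0.308, 95% interval -0.02 to 1.31, limma adjusted p = 0.276) was 0.36 without mouse 3, whose input was the lowest. In hM3Dq mice the change was 0.26 (SE 0.237, limma adjusted p = 0.539), and 0.051 without mouse 1.

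Sox10 encodes the HMG-box factor that turns on myelin genes (ENSMUSG00000033006, chromosome 15, 79154908 to 79165240, minus strand). Its FPKM in hM3Dq mice 1, 3, 4 and 5 was 7.65, 16.0, 9.40 and 10.6 in IP and 9.21, 9.11, 7.86 and 10.2 in input. The IP of mouse 3 was the highest of all 22 libraries, and the other 3 IPs overlapped the inputs. Control values ran from 3.70 through 10.2 to 12.8 in IP and from 3.85 through 7.13 to 13.99 in input. Changes of 0.20 in hM3Dq mice (limma adjusted p = 0.604) and 0.15 in control mice (limma adjusted p = 0.746) did not pass. They were 0.016 without hM3Dq mouse 3 and 0.051 without control mouse 4.

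In control mice 0 of the 8 tested members were called (1 at an unadjusted p under 0.05), against a background of 4.84% of 13999 genes, 2.23% called higher and 2.61% lower. The median change of the 8 was 0.22 in control mice and 0.23 in hM3Dq mice, beside 0.03 over all genes in each, with 7 and 6 of 8 above 0.

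Between genotypes none of the 8 was called in either fraction. With CNO given to every mouse, this comparison takes in any difference between the groups, MCH neuron activation among them. In IP, hM3Dq minus control lay between -0.31 for Olig2 and 0.40 for Neu4 (limma adjusted p 0.926 to 0.988), with 0.00739% of 13531 genes, that is 1 gene, called. In input it lay between -0.59 for Vcan and 0.55 for C1ql1 (all at a limma adjusted p of 0.9997), with 0% of 13512 genes called and 613 at an unadjusted p under 0.05. No member had IP or input values that separated the genotypes without overlap. For Olig2 in IP, 8.70 ± 1.78 (SD, n = 4) in hM3Dq against 10.9 ± 1.25 (SD, n = 7) in control mice, the 95% interval of the log2 difference was -0.71 to 0.09. The IP over input difference of the remaining members lay between -0.65 for C1ql1 and 0.87 for Vcan, and of the 8 only Pdgfra had an unadjusted p under 0.05.

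**Figure D3:**
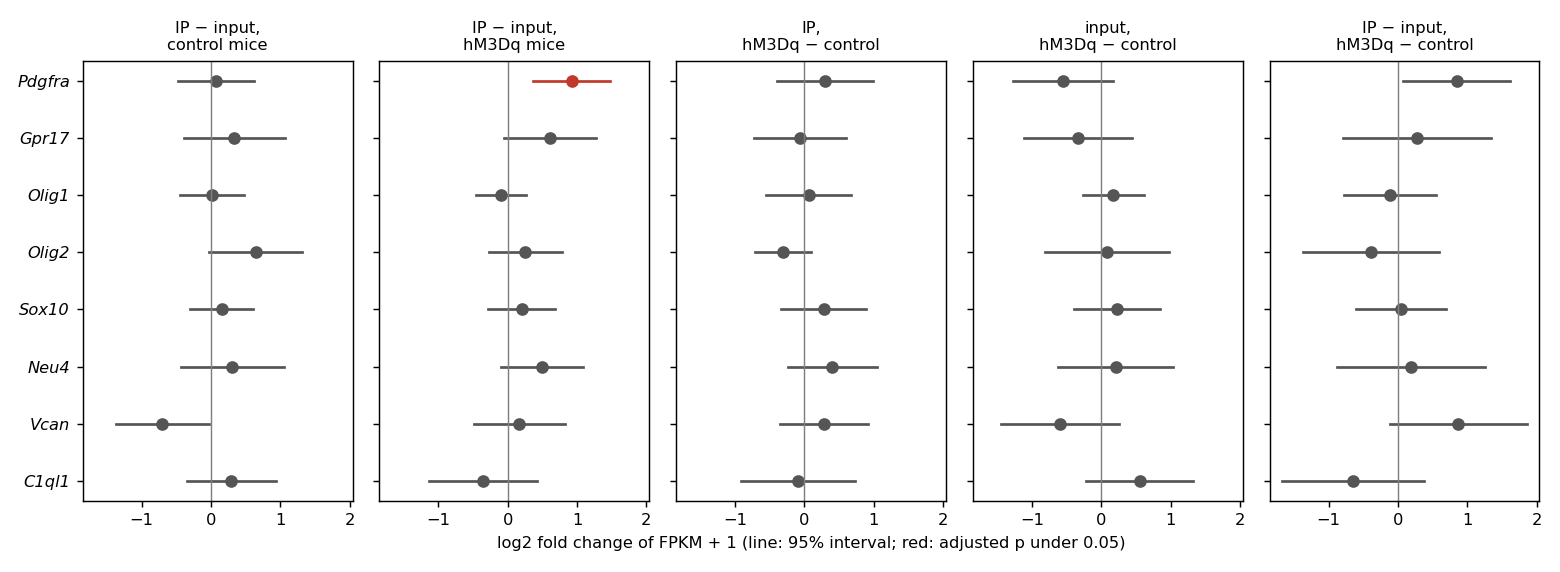
Fitted log2 changes of FPKM + 1 for the 8 tested members in the 5 comparisons, as points with 95% intervals. Red marks an adjusted p under 0.05, which is Pdgfra in hM3Dq IP against input (0.92). The Pdgfra interval in the comparison of IP over input between genotypes, 0.08 to 1.62, also lies above 0, but its adjusted p is 0.999.

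Across the 11 mice, in IP 33 of 36 pairs of members correlated positively (median Pearson r 0.26), and in input 18 of 36 did (median r -0.03). The difference between the fractions was not tested, and control IP 4 and IP 5 were the highest and the lowest library for 4 members each. Of these 72 correlations, tested with 100000 permutations, 5 in IP and 1 in input had an unadjusted p under 0.05 and 0 passed after adjustment. The closest pair was Cspg4 and Olig1 in IP (r = 0.85, permutation p = 0.00098, adjusted p = 0.0706; Spearman rho = 0.84, permutation p = 0.0023, adjusted p = 0.166). Without the 2 mice farthest from the Cspg4 median, r was 0.79, and within the control mice 0.87. Cspg4 was low in every IP, its highest FPKM there being 0.936. Pdgfra and Vcan had r = 0.73 in IP (permutation p = 0.00998, adjusted p = 0.359) and rho = 0.77 (permutation p = 0.00747, adjusted p = 0.269). Their IP r was 0.50 without the 2 mice farthest from the Pdgfra median and 0.92 within the control mice. In input, where they share the high control input 4, r was 0.69 (permutation p = 0.0315, adjusted p = 0.435). The input rho was 0.42 (permutation p = 0.203, adjusted p = 0.746), and r was 0.27 without the 2 farthest mice and 0.78 within the control mice.

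Over all 11 inputs, the genes whose levels ran most like a member's, of 8899 genes above an FPKM of 1 everywhere, were Robo2 (r = 0.88), Gaa (0.88) and Tmem179 (0.86) for Pdgfra. For Olig1 they were Usp6nl (0.94), Pou3f2 (0.93) and Coro2a (0.92). Olig2 ran most like Thoc7 (0.90), Klhl28 (0.89) and Ublcp1 (0.89), and Sox10 most like Rai1 (0.89), Ogdhl (0.89) and Taf15 (0.88). The points share libraries and depth, and these are the highest of many, given as a description.

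By list medians, with no test of the difference, the members lay between neuronal and myelin genes in IP against input. Of 21 other OPC-enriched genes tested, 1 rose in control IP, Cdo1 (0.71, limma adjusted p = 0.0302), an enzyme of cysteine breakdown, and 0 in hM3Dq IP, where the lowest adjusted p was that of Sema5a (0.70, limma adjusted p = 0.0564), and the medians were 0.15 and 0.20. Of 14 genes of committed and newly formed oligodendrocytes, Fyn, a kinase that promotes myelination, rose in both genotypes (0.87 and 0.94, limma adjusted p = 0.00476 and 0.00944). Tcf7l2, a factor of newly formed cells, rose in hM3Dq mice (0.59, limma adjusted p = 0.0345). Neurons also use Fyn, and Tcf7l2 is used by some neurons too.

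Of the mature oligodendrocyte genes tested, 4 of 17 fell in control IP and 4 of 16 in hM3Dq IP and none rose, beside 2.61% and 4.9% of all genes called lower. Changes above 0 were fitted for 5 of 17 and 2 of 16. Mobp and Mbp, which encode myelin proteins, fell in both: by 0.68 and 0.48 in control mice and by 0.95 and 0.73 in hM3Dq mice. Mal fell in control mice (-0.95) and Mog in hM3Dq mice (-0.97), all at a limma adjusted p between 0.00377 and 0.0433. The list medians were -0.48 and -0.53. Neuronal genes were called higher for 4 of 17 in control IP, among them Nefm (0.75) and Syt1 (0.67), and for 5 of 17 in hM3Dq IP, among them Rbfox3 (0.70) and Syt1 (0.69), with medians of 0.41 and 0.46, beside 2.23% and 5.41% of all genes called higher. Summed over the 17 listed neuronal genes, FPKM was 8059 to 12199 in IP and 6360 to 8201 in input. Much of that sum was 1 gene, Snap25, with a mean of 6188 in control IP and 4458 in control input. The sums of the 9 OPC genes were 32.4 to 85.6 and 34.8 to 63.2, and such sums do not measure cell numbers.

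**Figure D4:**
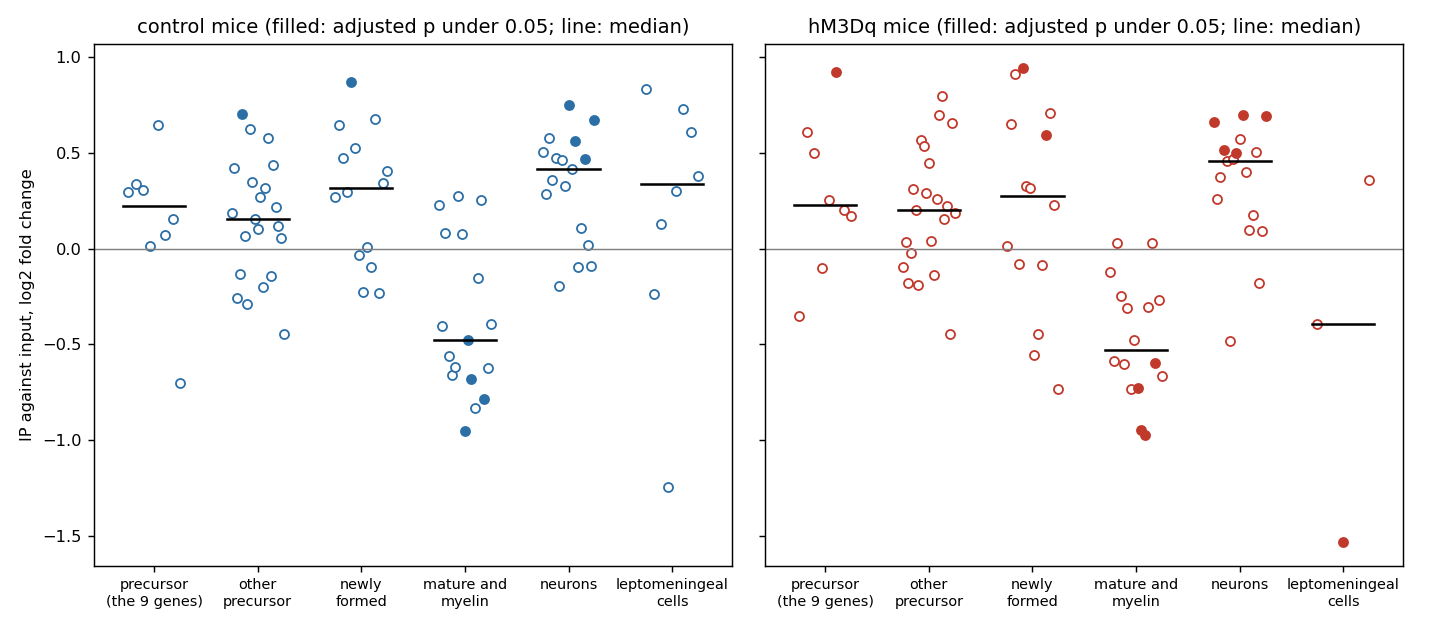
IP against input log2 changes of single genes in 6 lists, in control mice (left) and hM3Dq mice (right), with filled points for an adjusted p under 0.05 and lines at the list medians. The 8 tested members (medians 0.22 and 0.23) lie between mature oligodendrocyte genes (medians -0.48 and -0.53) and neuronal genes (medians 0.41 and 0.46).

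The partners of the members were mostly not called. Among PDGF ligands and signalling partners, Hras fell in control IP (-0.80, limma adjusted p = 0.0068) and Mapk3 in hM3Dq IP (-0.79, limma adjusted p = 0.00624), a GTPase and a kinase below the receptor that most cells share. Of the list 17 and 16 genes were tested. Of 21 partners and brakes of SOX10 and the OLIG factors, Sox2, a progenitor factor, and Id4, an inhibitor of helix-loop-helix factors, rose in both genotypes (Sox2 0.95 and 1.23, Id4 0.94 and 0.97). Nfib rose in hM3Dq mice (0.88, limma adjusted p = 0.0440), and the other 4 calls had limma adjusted p of 0.00252 to 0.0127. Astrocytes and tanycytes also use these 3 genes. Of the chondroitin sulfate matrix partners, 0 of 11 were called in control IP and 0 of 9 in hM3Dq IP, with 2 and 1 at an unadjusted p under 0.05. The lowest limma adjusted p were those of Hapln4, a link protein gene (0.84, 0.0898), in control mice and Tnr, the tenascin-R gene (0.65, 0.0741), in hM3Dq mice.

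Of the other cell types' lists, S100b of the astrocytes (-0.63) and Ccdc153 of the ependymal cells (-1.37) fell in control IP. Tyrobp of the microglia (-0.89) and Igf2 of the leptomeningeal cells (-1.53) fell in hM3Dq IP, and all 4 had a limma adjusted p between 0.00632 and 0.0360. Each was the only call of its list in that fit, among 11 astrocyte, 9 tanycyte and ependymal, 11 microglia and 3 leptomeningeal genes tested. Changes above 0 were fitted for 4, 4, 3 and 1 of these, with list medians of -0.20, -0.0032, -0.17 and -0.40. Of all genes, 2.61% in control and 4.9% in hM3Dq mice were called lower. Few genes of the pericyte and endothelial lists passed the filter: 4 and 6 were tested in control mice, and 2 and 2 in hM3Dq mice. None of these was called in either genotype, with 1 of each at an unadjusted p under 0.05 in control mice and 0 and 1 in hM3Dq mice. No gene of any of the 14 lists was called between genotypes, in IP, input or IP over input. Dcn, a fibroblast gene, had the lowest unadjusted p of the leptomeningeal list in both fractions (hM3Dq minus control -1.33 in IP and -1.49 in input, limma adjusted p 0.845 and 0.9997).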

How the data were processed

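The submitters' processing notes name HISAT2 2.1.0, StringTie 1.3.4d and GRCm38.p6. The authors deposited 1 table of normalized FPKM per gene and library; how it was normalized, and the number of reads, are not given in the sources used here. The same deposited table holds the authors' p-value and log2 fold change columns, copied only where named, and 11 columns of per-mouse ratios that were not used. Libraries were grouped by title. A low FPKM understates its fold change after the pseudocount of 1.

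Genes with FPKM of 1 or more in at least 4 libraries of a fit were tested on log2(FPKM + 1) with limma 3.58.1 (R 4.3.3, lmFit and eBayes with an intensity trend, two-sided). Adjustment was Benjamini-Hochberg over all genes tested. The scripts were checked on simulated data. IP and input were paired by mouse, since the protocol splits each lysate. Their deviations from the group means correlated between 0.135 and 0.312 in hM3Dq mice and between -0.0053 and 0.0981 in control mice. Of the 11 IPs 7 were closest to their own input, the exceptions being those of control mice 1, 2, 3 and 7. Genotypes were compared unpaired.

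The alternatives were a pseudocount of 0.1, no filter, no trend, quantile normalization, other pairing, and mice left out. All 9 members were named, and from other lists at most the 4 largest calls or, with none, the gene of lowest p. The members, lists and tests were chosen with earlier results of these data known. Gene positions are from GENCODE M21. The replicates are separate mice per the labels. Some called genes of the lists are not reported here by name.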

Additional observations from a re-analysis of the deposited data

Results flagged for a closer look

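Of 36 groups of member values, 2 held a library far from the others, where chance gives about 1 in 20. Pdgfra in the input of control mouse 4 was 8.46 FPKM, the highest of 7. On log2(FPKM + 1) its gap to the next value took 0.697 of the group's range. Olig1 in the input of control mouse 6 was 13.8 FPKM, the lowest of 7, with a gap of 0.894 of the range on the same log2 scale. Without control mouse 4 the Pdgfra difference in input, hM3Dq minus control, was -0.37 in place of -0.55. Control input 6 also had 1579 genes at 0.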

How the results depend on the processing

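Of the member changes recomputed under the alternatives, 550 kept direction and side of the threshold, 26 turned sign and 6 lost the call, all 6 of them Pdgfra in hM3Dq IP against input. Its change ranged from 0.81 to 1.21 and its limma adjusted p from 0.0382 to 0.160, and 3 of 9 alternatives kept it (pseudocount 0.1, no variance trend, quantile normalization). The number of members called there was 0 without the filter, 0 with no replicate block, and 0 to 0 with each mouse left out. Genes called in that comparison were 1338, and 552 without the filter, 592 without the trend, 739 with no replicate block and 575 to 836 with a mouse left out. In control mice 678 genes were called, 312 without the trend and 330 to 768 with a mouse left out. The 1 gene called between genotypes in IP became 0 with pseudocount 0.1, without the filter, without the trend, with a replicate block and without control mice 1, 5 and 6, and 0 to 2 with a mouse left out. In input and for IP over input, 0 to 1 genes were called with a mouse left out.

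Sign turned only for changes that were not called. Leaving out each mouse, control IP against input ran from -0.063 to 0.14 for Pdgfra and from -0.091 to 0.23 for Olig1, and hM3Dq IP against input from -0.56 to 0.087 for C1ql1. Between genotypes the ranges were -0.19 to 0.063 for Gpr17, -0.13 to 0.18 for Olig1 and -0.29 to 0.18 for C1ql1 in IP, and -0.19 to 0.25 for Olig2 in input. For IP over input they were -0.079 to 0.36 for Neu4 and -0.14 to 0.19 for Sox10. Replicate numbers shared by the genotypes name different animals. Blocking on them gave 0.0093 for Gpr17 in IP and 0.057 for Olig1 in IP over input, and changed no call of a member. Without control mice 1, 5 and 6, Olig1 in IP was -0.32, and IP over input was -0.19 for Gpr17, -0.015 for Sox10 and -0.45 for Neu4. The cause was not tested. With 4 hM3Dq mice and most members under 5 FPKM in the median, changes of the size of these intervals were not resolved.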
